A study of Mus musculus with 10 samples.

Results

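IKZF2 (Helios) binding was examined at 10 genes that encode subunits of the NuRD and Sin3 corepressor complexes: Gatad2a, Gatad2b, Mta1, Mta2, Mta3, Chd4, Hdac1, Hdac2, Mbd3 and Sin3a. The genes were chosen by name, with earlier results of these data known, and for each of them every counted region inside the gene span or within 5 kb of either gene end was taken. They held 64 of the 151133 counted regions and are 10 of 21887 protein-coding genes. All samples were RN2 cells, a mouse leukaemia line on the C57BL/6 strain that carries the MLL-AF9 fusion and NRASG12D, transduced with a retrovirus for murine IKZF2 and RFP, sorted, and grown for 2 weeks after transduction. The signal is therefore that of cells made to overexpress IKZF2. Binding was mapped by CUT&RUN, in which an antibody directs a nuclease to cut out the DNA beneath a protein. The 6 samples with the anti-IKZF2 antibody were 3 libraries with 2 technical replicates each. The 4 samples with a control antibody were not analysed here, so no value below is set against a control antibody. Whether the 3 libraries stem from different cultures is not in the labels, and the spread between them may be technical. No RNA was measured, so the cell type was not checked by marker expression.

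NuRD is a corepressor that joins nucleosome remodelling to histone deacetylation. CHD4 is its ATP-driven remodelling subunit, HDAC1 and HDAC2 are its deacetylases, the MTA proteins hold the deacetylases, MBD3 sits at the junction of its modules, and GATAD2A and GATAD2B bridge MBD3 to CHD4. Sin3 is a separate deacetylase corepressor that shares HDAC1 and HDAC2 with NuRD, and SIN3A is its scaffold. Ikaros family zinc finger proteins, IKZF2 among them, are known to associate with NuRD in lymphocytes. The measurements here concern signal over the genes that encode these subunits, not binding of IKZF2 to the proteins.

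Regions lay over annotated promoter windows of Gatad2a, Gatad2b and Mta2, and those windows are printed because they are the annotated starts at which signal was counted. RefSeq (GRCm38.p6) windows run from 250 bases before to 50 bases after a transcript start. They were found for 8 of the 10 genes, 12 windows in all, and 4 of the 12 were overlapped by a counted region. For both Gatad2a windows, capitals mark GGGAA or its complement TTCCC, the core sequence that Ikaros family zinc fingers recognise. For Gatad2b and Mta2, capitals mark the bases that the counted region covers. All 4 are given 5′ to 3′ along the gene.
Gatad2a, gene start, chr8:69996335-69996634, minus strand: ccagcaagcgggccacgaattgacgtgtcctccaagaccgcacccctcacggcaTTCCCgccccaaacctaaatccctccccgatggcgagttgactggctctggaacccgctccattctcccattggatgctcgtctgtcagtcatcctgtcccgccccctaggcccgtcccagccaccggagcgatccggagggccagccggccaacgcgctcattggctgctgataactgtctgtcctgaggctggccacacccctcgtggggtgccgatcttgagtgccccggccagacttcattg
Gatad2a, internal start, chr8:69974334-69974633, minus strand: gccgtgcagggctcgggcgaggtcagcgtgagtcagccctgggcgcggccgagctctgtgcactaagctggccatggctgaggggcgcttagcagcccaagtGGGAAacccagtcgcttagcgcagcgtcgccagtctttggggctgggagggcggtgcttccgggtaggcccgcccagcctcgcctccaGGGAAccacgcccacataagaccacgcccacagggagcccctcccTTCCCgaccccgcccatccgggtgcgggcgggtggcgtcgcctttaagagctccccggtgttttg
Gatad2b, gene start, chr3:90292931-90293230, plus strand: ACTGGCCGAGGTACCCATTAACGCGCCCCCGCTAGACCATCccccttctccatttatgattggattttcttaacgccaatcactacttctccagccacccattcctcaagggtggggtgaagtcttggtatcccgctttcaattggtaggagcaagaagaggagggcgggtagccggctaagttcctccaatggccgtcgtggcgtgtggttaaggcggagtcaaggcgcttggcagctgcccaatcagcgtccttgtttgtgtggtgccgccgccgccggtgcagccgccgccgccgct
Mta2, gene start, chr19:8941670-8941969, plus strand: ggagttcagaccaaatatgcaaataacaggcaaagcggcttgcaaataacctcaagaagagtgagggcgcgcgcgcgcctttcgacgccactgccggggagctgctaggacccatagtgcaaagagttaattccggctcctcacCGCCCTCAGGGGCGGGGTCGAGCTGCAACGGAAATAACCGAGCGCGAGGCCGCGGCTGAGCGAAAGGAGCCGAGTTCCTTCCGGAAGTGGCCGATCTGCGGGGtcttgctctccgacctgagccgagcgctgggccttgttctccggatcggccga

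GGGAA was searched on both strands of the 12 windows. It was present in 6 of them (50%), against 62.7% of all 32851 RefSeq windows of the same length. The Gatad2a start window held 1 match, inside its counted region. The internal Gatad2a window held 3, of which 2 lay inside the counted region. The printed Gatad2b and Mta2 windows held none. The longer TGGGAA, which contains GGGAA, was present in 1 of the 12 windows (8.333%), the internal Gatad2a window, against 25.56% of all windows. After the sequences had been seen, CCGGAA, the core of many ETS factor sites, and the CCAAT box were searched as well, both on either strand. CCGGAA was present in 3 of the 12 windows, against 14.9% of all windows. The Mta2 window held 3 CCGGAA matches, 2 of them inside the counted region. These 2 overlap, being the same palindromic stretch read on each strand. CCAAT was present in 8 of the 12 windows, against 37.41% of all windows. Both Chd4 windows are among the 8, and they overlap and hold the same CCAAT site. The median GC content was 62% in the 12 windows and 52.67% in all windows, which was not adjusted for. The Gatad2b window held 5 CCAAT matches, none of them wholly inside the region. These matches describe letters and are not evidence of bound sites.

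Each library's level at a region was its read count in CPM, taken over the reads that fell in regions, divided by the region's width in kb. A gene's level was that of its highest region within 5 kb of either end, averaged over the 3 libraries. Of all genes, 16133 (73.71%) had such a region. Their median was 58.8 CPM per kb, and the top 10% began at 101.8 CPM per kb. Gatad2a, Gatad2b, Mta2 and Sin3a were in the top 10%, that is 4 of the 9 corepressor genes with a gene-end region, where 10% of all genes lie by definition. The other 5 genes lay between 51.41 and 63.8 CPM per kb. A highest value tends to rise with the number of regions it is taken from, which was not adjusted for. Gatad2a had 5 regions within 5 kb of an end, and Gatad2b and Sin3a had 4 each. Chd4 had 3, Mta2, Mta1, Hdac1 and Hdac2 had 2 each, and Mbd3 had 1. The median of the 9 was 63.8 CPM per kb, and 5 of the 9 were above the all-gene median. No corepressor gene was in the top 10% in every library separately, which held for 301 of the 1614 top genes (18.65%). With a 1 kb window 2 of the 4 genes were in the top 10% (Gatad2b and Mta2). With regions of 200 bp or wider, or with levels not divided by width, 2 were (Gatad2a and Sin3a).

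**Figure D1:**
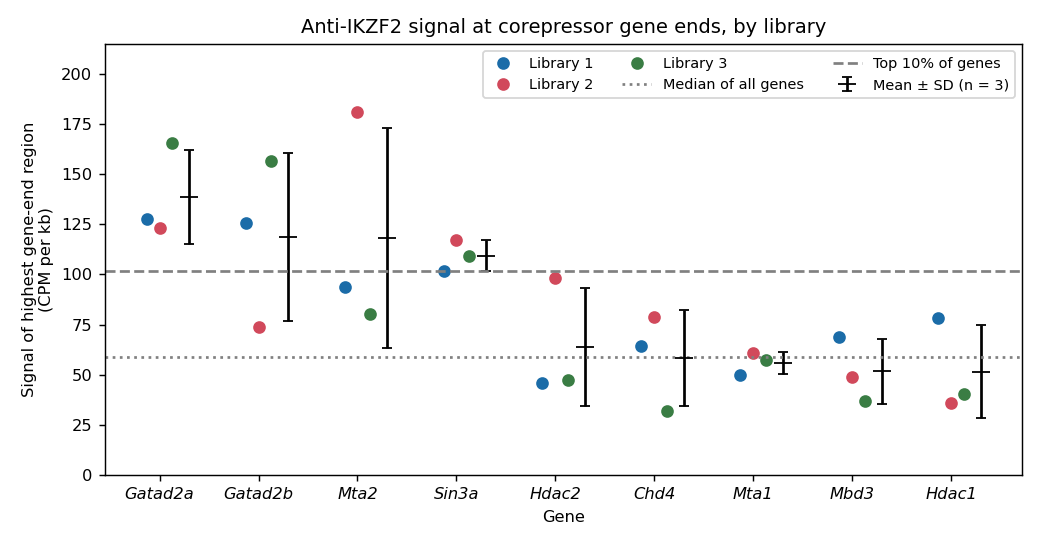
Level of the highest gene-end region (CPM per kb, vertical axis) for the 9 corepressor genes with such a region; dots are the 3 libraries and the black marks their mean ± SD. The libraries of Sin3a lie between 101.5 and 117.1 CPM per kb, whereas those of Mta2 run from 80.07 to 181.1 CPM per kb.

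**Figure D2:**
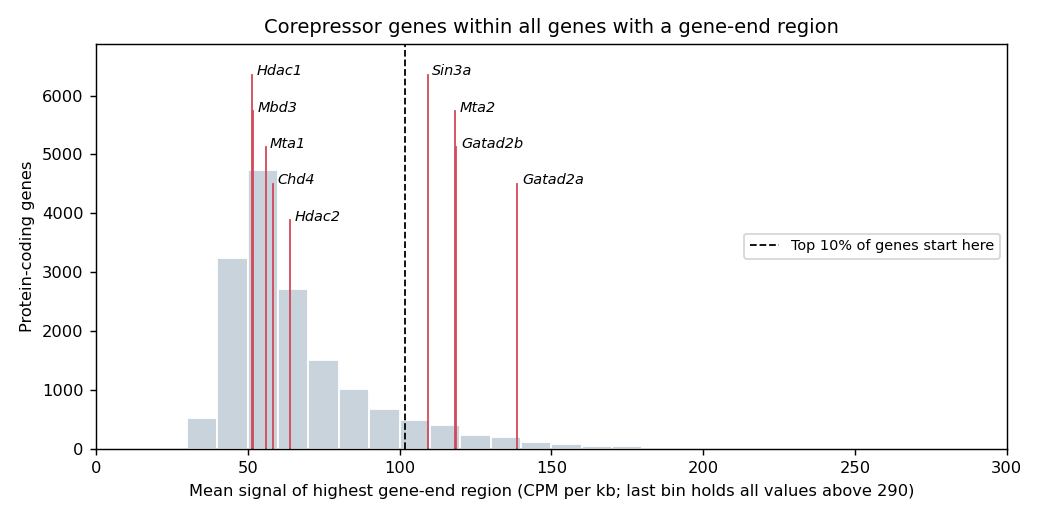
Number of protein-coding genes (vertical axis) by mean level of the highest gene-end region (CPM per kb, horizontal axis), in bins of 10 CPM per kb; red lines mark the corepressor genes and the dashed line the start of the top 10%, at 101.8 CPM per kb. Gatad2a, Gatad2b, Mta2 and Sin3a lie to the right of that line and the other 5 genes near the peak of the distribution.

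Among the GATAD2 bridging subunits, Gatad2a (chr8:69907069-69996402, minus strand) had the highest level of the 9 genes with a gene-end region. Its level was 127.6, 123.0 and 165.7 CPM per kb in libraries 1, 2 and 3, a mean of 138.8 ± 23.42 (SD, n = 3) at the 97.58th percentile of genes. All 3 libraries were above the 101.8 CPM per kb at which the top 10% of mean levels began, and ranked within each library the gene was in the top 10% in libraries 1 and 3. This region (chr8:70001285-70001430) was 145 bp wide and lay 4883 bp upstream of the gene span, with no other gene end within 5 kb. It held 31, 28 and 50 reads in the 3 libraries. With a 1 kb window Gatad2a was at 98.21 CPM per kb, below Gatad2b (118.7) and Mta2 (118.3). With regions of 200 bp or wider it was below Sin3a (109.3). In technical replicate 1 alone it was at 109.0 CPM per kb, below Gatad2b, Mbd3 and Mta2. Without library 3 it was at 125.3 CPM per kb, below Mta2 (137.3). Under the other alternatives run it was the highest.

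The Gatad2a start itself carried a broader region of 500 bp (chr8:69996258-69996758), which covered the whole printed start window. It held 256 reads, and its level was 105.1, 114.6 and 74.95 CPM per kb, a mean of 98.21 ± 20.71 (SD, n = 3). A further region of 228 bp over the internal start (chr8:69974277-69974505) held 81 reads at 70.69, 61.45 and 67.43 CPM per kb. The libraries at this internal start lay close together, with a coefficient of variation of 7.044%, against a median of 36.96% for all regions of 200 to 300 bp. The other 15 Gatad2a regions were at 72.62 CPM per kb or below. In all, Gatad2a held 18 regions and 911 reads.

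Gatad2b (chr3:90293181-90363405, plus strand) had its highest region 210 bp before the gene span, where it covered 41 bases of the printed window. This region (chr3:90292876-90292971, 95 bp, 62 reads) was at 125.7, 73.74 and 156.8 CPM per kb, a mean of 118.7 ± 41.95 (SD, n = 3). Library 2 was lower than the other 2, and without library 3 the mean was 99.7 CPM per kb, outside the top 10%. The other 8 Gatad2b regions reached 71.39 CPM per kb at most. A 110 bp region 23154 bp inside the gene had 12 reads in library 1, 20 in library 2 and none in library 3, a level of 60.3 ± 58.04 CPM per kb (SD, n = 3).

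The MTA subunits differed in where their regions lay. Mta2 (chr19:8941920-8952300, plus strand) had 2 regions, both within 5 kb of an end. The higher (chr19:8941814-8941916, 102 bp, 62 reads) ended 4 bp before the gene span and lay wholly inside the printed window. Its level was 93.64, 181.1 and 80.07 CPM per kb, a mean of 118.3 ± 54.81 (SD, n = 3), with library 2 far above the other 2. Without library 2 the mean was 86.85 CPM per kb, and Mta2 was no longer in the top 10%. An end of Eml3 also lies within 5 kb of this region, so the signal cannot be assigned to either gene. The second region (198 bp, 79 reads), 1460 bp past the gene's end and near Tut1, was at 77.61 ± 27.29 CPM per kb (SD, n = 3).

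Mta1 (chr12:113098248-113137206, plus strand) was near the middle of all genes, at the 41.73rd percentile. Its highest region, 2198 bp downstream of the annotated start, was at 49.74, 60.65 and 57.19 CPM per kb, a mean of 55.86 ± 5.574 (SD, n = 3). The 3 libraries were close together. Mta3 (chr17:83706163-83823715) had 16 regions and 568 reads, none of them within 5 kb of an end, so it has no gene-end level. Over all of its regions together it was at 48.62 ± 4.205 CPM per kb (SD, n = 3). The highest Mta3 region (chr17:83732256-83732440, 184 bp) was at 84.35, 89.99 and 47.0 CPM per kb, with library 3 below the other 2.

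The remodeller gene Chd4 (chr6:125095980-125130591, plus strand) had 3 regions, all outside its span. Its highest level, 1194 bp past the gene's end and near Nop2, was 64.13, 78.95 and 31.76 CPM per kb, a mean of 58.28 ± 24.13 (SD, n = 3). No region overlapped either of its promoter windows. Mbd3 (chr10:80392539-80399531, minus strand) had 1 region, 3970 bp upstream and near Uqcr11, with 12, 8 and 8 reads. Its level was 68.88, 48.99 and 36.96 CPM per kb, a mean of 51.61 ± 16.12 (SD, n = 3). In technical replicate 1 alone its mean was 148.5 CPM per kb and in technical replicate 2 alone 32.18 CPM per kb, so its place among genes rested on few reads.

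The proteins of the deacetylase genes serve both complexes. Hdac2 was at the 60.65th percentile of genes and Hdac1, the lowest of the 9 genes, at the 27.62nd. Hdac2 (chr10:36974297-37001889, plus strand) was at 45.92, 97.98 and 47.52 CPM per kb in a region 3699 bp beyond its end, a mean of 63.8 ± 29.61 (SD, n = 3). Library 2 was the highest, in a region that held 30 reads over the 3 libraries. Hdac1 (chr4:129516104-129542646, strand not in the tables used) was at 78.1, 35.71 and 40.41 CPM per kb, a mean of 51.41 ± 23.24 (SD, n = 3), with library 1 the highest. A wider Hdac1 region (chr4:129512326-129512604, 278 bp, 75 reads), 3500 bp outside the span and near Marcksl1, had almost the same mean with a smaller spread, 51.15 ± 7.287 CPM per kb (SD, n = 3).

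Sin3a (chr9:57071991-57128368, plus strand), the scaffold of the Sin3 complex, had the most even of the 4 highest levels. Its highest region (chr9:57073416-57073851) was 435 bp wide and lay inside the gene, 1376 bp downstream of the annotated start. It held 74, 80 and 99 reads, which came to 101.5, 117.1 and 109.3 CPM per kb and a mean of 109.3 ± 7.787 (SD, n = 3). Its coefficient of variation was 7.122%. Ranked within each library, Sin3a was in the top 10% in library 3 only. In technical replicate 1 alone it was at 97.79 CPM per kb, below the 118.2 CPM per kb at which the top 10% then began. Few regions were as wide or as well filled, since 249 regions (0.1648%) reached this width and 0.03639% reached its 253 reads. The region overlapped neither of the Sin3a promoter windows. A narrow region 1166 bp inside the gene, by contrast, was at 33.47, 154.7 and 35.92 CPM per kb, a mean of 74.71 ± 69.32 (SD, n = 3), set by library 2.

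**Figure D3:**
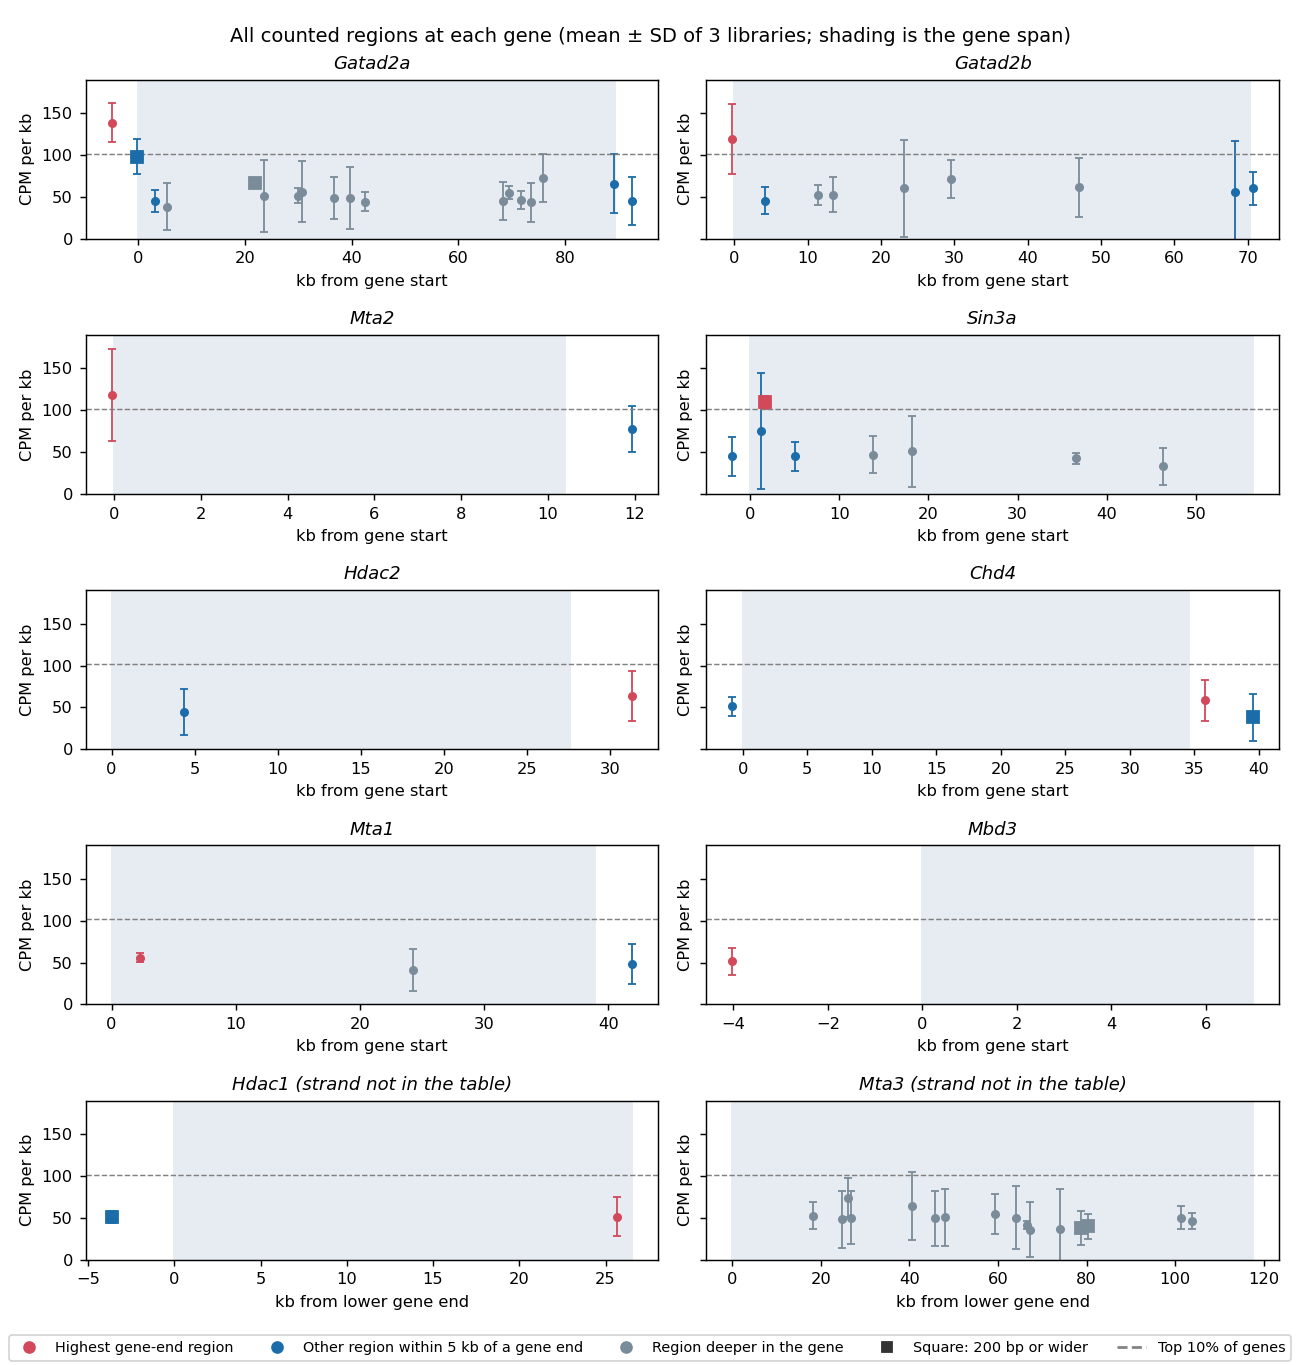
Every counted region of the 10 genes, by distance from the gene start (kb; from the lower coordinate for Hdac1 and Mta3) and level (CPM per kb, mean ± SD of 3 libraries, bars cut at 0). Gatad2a and Sin3a show a wide region (square) at or near the gene start, Gatad2b and Mta2 a narrow one just before it, and the Mta3 regions all lie deep in the gene.

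When the 9 genes were ordered by level, 1 step between neighbours exceeded 1 SD of the paired difference. The order and the steps come from the same library values, so the steps are a description and not a test. Sin3a, the fourth gene, was above Hdac2, the fifth, by 45.49 ± 23.05 CPM per kb (SD of the paired difference, n = 3), and was higher in 3 of 3 libraries. Gatad2a was above Gatad2b in 3 of 3 libraries as well, but by 20.02 ± 25.56 CPM per kb, within the spread. Gatad2b and Mta2 differed by 0.4767 ± 96.02 CPM per kb. Mta2 and Sin3a differed by 8.97 ± 48.84 CPM per kb. The steps among Hdac2, Chd4, Mta1, Mbd3 and Hdac1 were each 5.527 CPM per kb or less, below their SDs of 11.69 to 24.2.

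Most of the 64 regions resembled the rest of the data. Their median width was 110 bp against 109 bp for all regions, their median level 50.92 against 49.49 CPM per kb, and their median of summed reads 31.5 against 31. The 39 regions deeper than 5 kb in a gene ran from 33.09 to 73.78 CPM per kb (median 50.29). The 25 at gene ends ran from 38.12 to 138.8 CPM per kb (median 55.57), and 9 of the 25 also lay within 5 kb of another gene's end. The Gatad2a start region and the Sin3a region were the 2 of 400 bp or wider and held 17.99% of the 2830 reads over the 10 genes. In all regions the median coefficient of variation between libraries fell from 56.21% at 90 to 99 bp to 24.16% at 400 bp or wider. Median reads per region rose from 26 to 127 over the same classes. The coefficient was 21.09% and 7.122% in the wide regions of Gatad2a and Sin3a. In the highest regions of Gatad2b and Mta2, both narrow, it was 35.33% and 46.35%. The 145 bp region of Gatad2a, at 16.88%, was below the wide one of that gene.

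**Figure D4:**
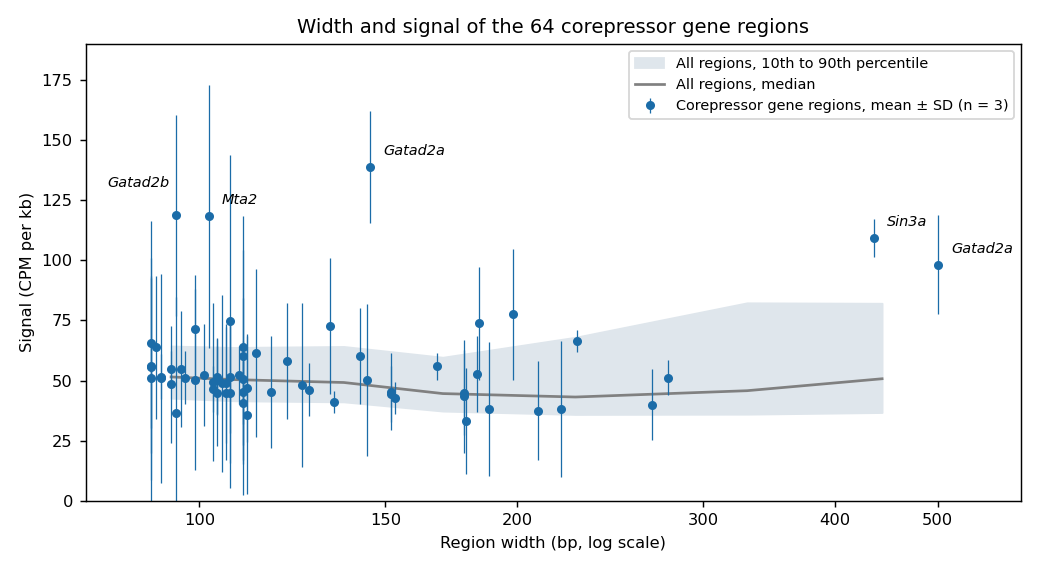
Width (bp, log scale) and level (CPM per kb) of the 64 corepressor gene regions; points are means and bars the SD of 3 libraries, cut at 0, and the grey band holds the 10th to 90th percentile of all regions by width class. The labelled points of Gatad2a, Gatad2b, Mta2 and Sin3a lie above the band, and the remaining regions mostly inside it.

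Technical replicates of a library were compared first over the whole table. Technical replicate 2 was deeper, with 1296355 to 1755015 reads in regions against 273896 to 326440 in technical replicate 1. With edgeR's quasi-likelihood test and the library as a block, 71 of 27452 tested regions were called at an adjusted p under 0.05 (0.259%). None of the 17 tested corepressor regions was called, and their lowest adjusted p in edgeR was 0.3518. A region was tested when at least 2 samples reached 12.32 CPM, which was so for 17 of the 64 corepressor regions. The Hdac1 region of 278 bp and the Mta2 region of 198 bp reached that level in technical replicate 2 alone, and the Mbd3 region, the Gatad2b region of 142 bp and the Mta3 region of 134 bp in technical replicate 1 alone. For these 5 the direction was fixed by the filter and is not a result.

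At an unadjusted p under 0.05 the count in edgeR was 6 of 17 (35.3%), against 6.86% of all tested regions, and in DESeq2 2 of 17 (11.8%), against 4.72%. The count was 1 of 12 (8.33%) without library 1, against 4.87% of all tested regions. Without library 2 it was 1 of 12 (8.33%), against 3.95%, and without library 3 it was 4 of 14 (28.6%), against 4.91%. With reads scaled to their total instead of TMM it was 2 of 17 (11.8%), against 3.82% of all regions. Those 2 were the Mta2 region of 198 bp and the Hdac1 region of 278 bp, which passed the filter through technical replicate 2 alone. That count is therefore not a result. With no filter beyond 1 read it was 8 of 64 (12.5%), against 5.25%. The 6 in edgeR with TMM included the same Hdac1 and Mta2 regions. The other 4 were the Gatad2a regions of 500 and 228 bp, the Sin3a region of 435 bp and the Mta3 region of 184 bp. The Gatad2a start region and the Sin3a region reached the filter's level in all 6 samples. With TMM their log2 fold changes of technical replicate 2 over 1 were 0.87 ± 0.39 (SE) and 0.95 ± 0.40 (SE), with adjusted p of 0.5726 and 0.5025 in edgeR. With total-read scaling they were 0.50 and 0.58, with unadjusted p of 0.2007 and 0.1534 in edgeR. Over the 17 regions the median log2 fold change was 0.87, and over all tested regions 0.41. Scaled to total reads the medians were 0.50 and 0.05, and with no filter beyond 1 read, over all 64 and all 151133 regions, 0.99 and 0.83.

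**Figure D5:**
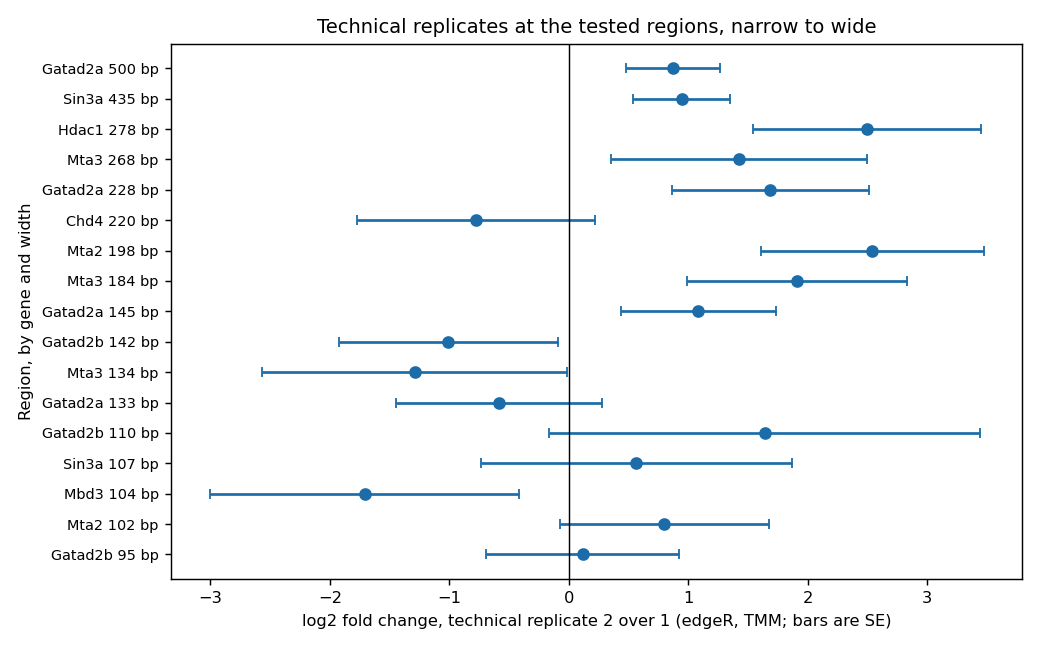
Log2 fold change of technical replicate 2 over 1 (horizontal axis, edgeR with TMM; bars are SE) at the 17 tested corepressor regions, from narrow (bottom) to wide (top). At the Gatad2a start (500 bp) it was 0.87 and at the Sin3a region (435 bp) 0.95, beside a median of 0.41 over all tested regions. With total-read scaling, not drawn, these were 0.50 and 0.58, beside a median of 0.05. The Hdac1 region of 278 bp and the Mta2 region of 198 bp passed the filter through technical replicate 2 alone.

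The 3 libraries were then compared with the technical replicate as a term. The residual error of this test comes from technical replicates alone. With edgeR 4 regions were called in the whole table (0.0146%) and none of the 17 corepressor regions. At an unadjusted p under 0.05 there was 1 of the 17 in edgeR, against 4.35% of all tested regions, and 0 of the 17 in DESeq2, against 5.69%. The 1 was the Gatad2b region 23154 bp inside the gene, which reached the filter's level in library 2 alone, so that its being highest there is not a result. Summed over all regions of a gene, 4 of 14879 genes were called between technical replicates (0.0269%), none of them among the 9 corepressor genes tested, whose lowest adjusted p was 0.9984 with edgeR. At an unadjusted p under 0.05 there was 1 of 9 in edgeR, against 4.44% of all genes, and 1 of 9 in DESeq2, against 2.51%. In edgeR it was Mbd3, with 14 reads in each technical replicate, which reached the filter's level in technical replicate 1 alone. With no filter beyond 1 read none of the 10 genes had such a p, against 4.7% of all genes. Leaving out library 1 gave 2 of 9, against 4.97% of all genes. Leaving out library 2 or 3 gave 0 of 9, against 3.59% and 4.03%. Between libraries no gene was called (0%), although 804 of all genes (5.4%) had an unadjusted p under 0.05 in edgeR and 404 in DESeq2. None of the 9 corepressor genes did, and their lowest adjusted p in edgeR was 0.9152, for Gatad2a. Hdac2 reached the filter's level of 18.59 CPM in 1 of the 2 samples needed and was not in the gene tests. The absence of calls does not show that the libraries were alike.

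Other subunits and other chromatin regulators were described on the same scale, from lists of each complex's known subunits. Of 8 other NuRD genes, 1 was in the top 10% (12.5%), Chd5, a relative of Chd4, at 107.4 ± 59.08 CPM per kb (SD, n = 3). Rbbp4, a histone chaperone of both complexes, was at 84.39 ± 17.27, Mbd2, the alternative to Mbd3, at 74.76 ± 4.773, and Cdk2ap1 was the lowest at 37.36 ± 35.7 CPM per kb. Of 15 other Sin3 genes with a gene-end region, 6 were in the top 10% (40%). The highest was Sin3b, the paralog of Sin3a, at 141.8, 252.2 and 285.4 CPM per kb. Its region overlapped a gene end, was 101 bp wide and held 124 reads, and its mean of 226.5 ± 75.16 CPM per kb (SD, n = 3) was at the 99.9th percentile and in the top 10% in 3 of 3 libraries.

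Among the other 5 Sin3 genes in the top 10%, Brms1l was at 113.0 ± 38.87 and Arid4a at 109.6 ± 28.32 CPM per kb, and Phf12, Ing1 and Ing2 at 109.3, 108.2 and 101.8 CPM per kb. Brms1 was the lowest Sin3 gene at 40.78 ± 18.79 CPM per kb. The count of 6 fell to 2 without library 1 and to 1 in technical replicate 1 alone, and was 7 of 14 with the nearest gene only.

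The remaining lists had 2 of 7 CoREST genes in the top 10% (28.57%), 0 of 5 NCoR complex genes, 1 of 9 Polycomb genes (11.11%) and 2 of 12 SWI/SNF genes (16.67%). Over the alternatives run, the counts went from 0 to 2 for CoREST and SWI/SNF genes. They went from 0 to 1 for NCoR complex, Polycomb and other NuRD genes. Among their higher genes were the CoREST scaffold Rcor1 (110.6 ± 22.28 CPM per kb) with Zmym2 (80.9 ± 47.17), the NCoR complex genes Gps2 (93.9 ± 23.23) and Ncor1 (78.78 ± 34.49), the Polycomb methyltransferases Ezh1 (107.3 ± 34.73) and Ezh2 (95.24 ± 15.17) with Jarid2 (77.14 ± 40.98), and the SWI/SNF subunits Smarcc1 (131.0 ± 21.15), Smarcd1 (102.4 ± 42.36) and Smarcd2 (80.14 ± 16.58). The lowest were Kdm1a (47.14 ± 27.95), Tbl1xr1 (51.13 ± 31.58), Cbx8 (42.18 ± 29.98) and Arid1a (47.73 ± 15.56 CPM per kb). All errors are SD over 3 libraries. The medians of the 6 lists lay between 56.29 and 78.78 CPM per kb, beside 63.8 CPM per kb for the 9 corepressor genes and 58.8 CPM per kb for all genes. With no test of lists, nothing here sets the corepressor genes apart from the others.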

How the data were processed

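Raw read counts over a set of regions common to all samples were used as deposited, per the file headers, with no normalization. Per the submitters' processing notes, the build is mm10 and the tools include MACS2 and Bowtie2 2.3.3.1. The sources used here do not give the part each tool played, the peak threshold or the samples behind the calls. Region starts are printed as they stand, since their base (0 or 1) is unstated. Reads in regions, not sequencing depth, were 1570251 to 2081455 per library. Among counts of at least 10, even numbers made up 84.65 to 87.35% in the first technical replicate and 58.02 to 61.23% in the second, so counts are not independent molecules.

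The technical replicates of a library, numbered alike in the labels, were summed. CPM per kb, ranks and SDs were computed with Python 3.11.15, pandas 2.3.3 and numpy 2.4.6, and figures with matplotlib 3.10.9. Dividing by width favours narrow regions. Genes and promoter windows came from RefSeq tables of GRCm38.p6, whose coordinates are those of mm10, and windows were matched by symbol. Counts were tested with edgeR 4.0.16 in R 4.3.3 (filterByExpr, TMM, glmQLFit, glmQLFTest, Benjamini-Hochberg adjustment over all features, threshold 0.05), with DESeq2 1.42.0 as an alternative. The edgeR steps after the filter were also run on simulated counts with known changes. Those counts did not carry the excess of even numbers, and DESeq2 was not run on them. SE are from the edgeR fit.

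The genes, lists and tests were chosen with earlier results of these data known. The 10 corepressor genes were all named, with the 3 highest and the lowest gene of each list, except that some genes this rule names are not reported here; Phf12, Ing1 and Ing2 and the neighbouring genes were named after their values were seen. Alternatives were windows of 1 and 10 kb, the nearest gene only, regions of 200 bp or wider, sums and levels not divided by width, TMM-scaled totals, dropping the top 0.1% of regions, each technical replicate alone, and leaving out each library.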

Additional observations from a re-analysis of the deposited data

How the results depend on the processing

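The count of 4 corepressor genes in the top 10% stayed at 4 with a 10 kb window, the nearest gene only, TMM-scaled totals, without the top 0.1% of regions and in technical replicate 2 alone. It was 2 with a 1 kb window, with regions of 200 bp or wider, with summed CPM and with CPM not divided by width, and 3 in technical replicate 1 alone (Gatad2b, Mta2 and Mbd3). Leaving out 1 library gave 3 to 4. The count of windows with a motif was 1 for TGGGAA against 6 for GGGAA. No corepressor region or gene was called by edgeR or DESeq2 under any alternative run. Calls over the whole table moved more. For regions between technical replicates, against 71, DESeq2 and total-read scaling gave 55 each, no filter beyond 1 read 46, no block 46, and leaving out 1 library 0 to 18. Of the 71, 38 were higher in technical replicate 2, of the 55 by total-read scaling 9, and of the 55 by DESeq2 15. For regions between libraries, against 4, no covariate gave 0 and leaving out 1 library 0 to 4. For genes between technical replicates, against 4, DESeq2 gave 1, total-read scaling 1, no covariate 1, gene-end regions only 2, no filter beyond 1 read 10, and leaving out 1 library 0 to 2. The cause was not tested. Of the levels of single genes, Mta1 was 82.51 CPM per kb in technical replicate 1 alone and Mbd3 was 91.53 CPM per kb with a 10 kb window, where Mta3 first had a level, 56.02 CPM per kb. Narrow regions with under 100 reads limit the precision of most of these levels. The technical replicates were compared with the library as a replicate block, and the values given as no block or no covariate are the fits without it. Between the antibodies no paired analysis was possible because samples with the control antibody were not analysed here.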
